A study of Mus musculus with 6 samples.

Results

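The genes examined here build selectin ligands, the sugar structures by which leukocytes roll on the vessel wall. They comprised the protein scaffold Selplg (PSGL-1), the glycosyltransferases C1galt1, Gcnt1, B4galt1, St3gal1, St3gal4, St3gal6, Fut4 and Fut7, and Cd43. Members were taken as the rows of the deposited count table whose gene symbol equals one of these 10 names, and 9 of the 10 had a row among 16281 genes. Cd43 had none, because the mouse gene for CD43 is listed under its official symbol, Spn, which is described below with the other genes of the pathway. The members were chosen by name with the difference in their RNA counts between the treatment groups of these same samples already known. Their values in that comparison are therefore given as a description, without p-values.

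The samples were 6 RNA-seq libraries of spleen CD8+ T cells from OT1 mice, C57BL/6 animals of genotype Tg(TcraTcrb)1100Mjb whose T cells carry a transgenic receptor for an ovalbumin peptide. All cells were activated for 48 h with plate-bound anti-CD3, soluble anti-CD28 and IL-2 and were then expanded in IL-2 for 3 days. GSK cultures (n = 3) received 0.5 μM GSK2879552, an irreversible inhibitor of the histone demethylase LSD1, throughout activation and expansion, and Veh cultures (n = 3) received the vehicle. The study describes the cells as coming from separate mice, and the labels give no age and do not tie a GSK culture to a Veh culture of the same animal. Activated cells of 1 receptor specificity, 1 dose and 1 time point were measured, and neither resting cells nor selectin binding was part of these data.

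Selectins on endothelium and platelets bind a fucosylated, sialylated sugar called sialyl Lewis x. On T cells it is carried mainly by O-linked glycans, which start with a GalNAc on serine or threonine. C1galt1 adds galactose to make core 1, Gcnt1 adds a GlcNAc branch that makes core 2, a beta-1,4-galactosyltransferase such as B4galt1 extends the branch, St3gal enzymes add sialic acid, and Fut4 or Fut7 adds the fucose. Resting T cells make little of this structure, and effector CD8+ T cells are known to acquire it with their ability to enter inflamed tissue.

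The libraries held 18288447 to 18918811 counted fragments in Veh and 19149909 to 19846720 in GSK. Levels are given as CPM, counts rescaled to the same fixed total in each library after adjustment of the library sizes by the trimmed mean of M values (TMM). A gene was called when its edgeR adjusted p was under 0.05 and its fold change over 1.5. In the fit over 11698 genes, 260 were called higher in GSK, which is 2.22% of those tested, and 479 lower, which is 4.09%, with a median log2 fold change of -0.0039. The 6 markers of CD8+ T cells summed to 2255 to 2371 CPM in Veh and 2104 to 2249 CPM in GSK, and at an adjusted p under 0.05 3 of the 6 (Cd3d, Cd3e and Cd3g) were lower in GSK and 1 (Cd2) was higher. Markers of other cells were low: 6 B cell genes summed to 6.20 to 8.16 CPM in Veh and 7.82 to 9.21 CPM in GSK, the 6 of 8 listed myeloid genes with a row to 2.79 to 4.73 and 1.30 to 2.73 CPM, and 4 CD4 T cell and NK cell genes to 4.99 to 7.34 and 5.92 to 9.19 CPM. Of these, Cd22 passed the test as higher in GSK (log2 fold change 2.65, SE = 0.35, n = 3 per group, edgeR adjusted p = 1.5e-04). Stromal, endothelial and erythroid markers summed to 72.3 to 81.6 CPM in Veh and 58.2 to 73.7 CPM in GSK, nearly all from Pecam1, which T cells also express. The part of these markers in the results below was not tested.

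Gcnt1 and Fut7 were the members that stood higher in GSK by more than the fold threshold. Both differences were larger than the spread between cultures, and the remaining 7 members lay within 1.5-fold of Veh. All 9 members passed the filter on low counts. Against the 2.22% of all tested genes called higher and the 4.09% called lower, 2 of 9 members met the call rule as higher and none as lower, and nothing is read from this count because the rule used this comparison. At the adjusted p alone, which 16.6% of tested genes passed as higher and 15.5% as lower, 3 members were higher (Gcnt1, Fut7 and St3gal4) and 1 was lower (B4galt1). St3gal4 no longer passed the adjusted p when Veh replicate 1, Veh replicate 2 or GSK replicate 3 was left out. Nor did B4galt1 without Veh replicate 1 or 3 or GSK replicate 1 or 3. These passes and losses are likewise a description, from which nothing is read. The groups did not overlap for 3 of 9 members, against 46.7% of all tested genes, and the members' median log2 fold change was 0.11. RNA of a whole culture was measured, so that more cells expressing a gene and more RNA per cell cannot be told apart.

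Fut7 lies on mouse chromosome 2 from 25422351 to 25426374 on the plus strand, and Gcnt1 on chromosome 19 from 17326141 to 17372844 on the minus strand (RefSeq, GRCm38.p6). No other annotated gene overlaps either. The RefSeq promoter table holds windows for a pair of Fut7 transcription starts, both inside the annotated gene span, and for 3 Gcnt1 starts. The 250 bases ahead of each are shown because these members had the largest differences. The windows of the Fut7 starts are chr2:25422992-25423241 and chr2:25423444-25423693, and those of the Gcnt1 starts are chr19:17372845-17373094, chr19:17356668-17356917 and chr19:17339506-17339755. Capitals mark letters that match a searched motif.
Fut7 start 1: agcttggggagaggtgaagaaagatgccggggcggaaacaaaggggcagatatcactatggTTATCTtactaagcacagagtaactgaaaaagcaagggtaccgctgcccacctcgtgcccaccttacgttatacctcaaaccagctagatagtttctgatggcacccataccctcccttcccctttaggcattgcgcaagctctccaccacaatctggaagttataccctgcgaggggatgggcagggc
Fut7 start 2: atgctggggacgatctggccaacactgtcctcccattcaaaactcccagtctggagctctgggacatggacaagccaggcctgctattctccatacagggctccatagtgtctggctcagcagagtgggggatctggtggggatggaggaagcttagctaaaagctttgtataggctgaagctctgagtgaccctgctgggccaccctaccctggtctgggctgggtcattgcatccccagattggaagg
Gcnt1 start 1: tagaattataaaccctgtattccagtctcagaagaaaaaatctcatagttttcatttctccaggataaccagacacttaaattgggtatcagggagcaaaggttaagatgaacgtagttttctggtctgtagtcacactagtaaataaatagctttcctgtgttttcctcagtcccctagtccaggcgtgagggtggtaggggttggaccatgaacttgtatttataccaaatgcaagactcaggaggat
Gcnt1 start 2: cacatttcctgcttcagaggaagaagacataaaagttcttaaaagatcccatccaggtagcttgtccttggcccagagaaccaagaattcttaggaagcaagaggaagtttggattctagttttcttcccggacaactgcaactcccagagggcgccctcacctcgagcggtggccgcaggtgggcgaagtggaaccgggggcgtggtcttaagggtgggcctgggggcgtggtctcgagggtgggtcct
Gcnt1 start 3: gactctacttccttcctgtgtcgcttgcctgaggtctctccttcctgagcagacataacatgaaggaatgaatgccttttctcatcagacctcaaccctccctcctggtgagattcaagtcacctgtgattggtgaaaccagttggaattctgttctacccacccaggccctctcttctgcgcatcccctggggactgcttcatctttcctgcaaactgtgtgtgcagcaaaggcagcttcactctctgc

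The motifs searched on both strands, in windows of 250 bases before to 50 after each start, were AGGTGTGA for T-box factors, TTCNNNGAA for STAT factors, AGATAA and TGATAA for GATA factors, and CACGTG, the E-box. The only match in the Fut7 and Gcnt1 windows was AGATAA, on the reverse strand 189 bases before Fut7 start 1. Of 32851 mouse promoters of the same length, 11.2% held AGATAA, 9.05% TGATAA, 1.28% the T-box letters, 8.3% the STAT letters and 7.15% the E-box. Windows were at hand for 7 of the 10 listed members, 11 windows in all, and the rest of them held AGATAA once, in St3gal6, and the STAT letters once, in B4galt1. The Gcnt1 windows differed in base composition, with GC contents of 40.7%, 58.7% and 52.0%, against a median of 52.7% over all promoters. For Fut7 start 1, the 20 bases from the start on were in no GENCODE transcript of Fut7, while for Fut7 start 2 and the 3 Gcnt1 starts they were.

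Selplg encodes PSGL-1, the main P-selectin ligand of T cells, and was the most abundant member in both groups. It measured 758, 750 and 798 CPM in Veh and 704, 762 and 702 CPM in GSK. The groups overlapped through GSK replicate 2, with means of 769 ± 25.9 and 723 ± 34.3 CPM (SD, n = 3) and a log2 fold change of -0.09 (SE = 0.041). C1galt1, which makes core 1, stood at 57.2, 52.7 and 51.4 CPM in Veh and at 53.0, 61.2 and 46.1 CPM in GSK. Its GSK values lay on both sides of the Veh values, and the log2 fold change was -0.01 (SE = 0.092).

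Gcnt1, the core 2 branching enzyme, measured 14.0, 17.1 and 16.1 CPM in Veh and 42.7, 42.9 and 48.0 CPM in GSK. Every GSK culture exceeded every Veh culture, and the means were 15.7 ± 1.60 and 44.5 ± 2.97 CPM (SD, n = 3). The difference was 2.83-fold, 1.5 on the log2 scale (SE = 0.086). Among the 11698 tested genes this was number 42 from the top. B4galt1, a galactosyltransferase that extends the branch, was present at 240, 214 and 236 CPM in Veh and 193, 223 and 193 CPM in GSK. The GSK replicate 2 value exceeded the lowest Veh value, so the groups overlapped, and the log2 fold change was -0.18 (SE = 0.063).

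The sialyltransferases differed little between groups. St3gal4, one of the enzymes that sialylate the extended branch, had 68.9, 65.7 and 71.0 CPM in Veh and 73.3, 77.0 and 84.3 CPM in GSK, with every GSK value above every Veh value and a log2 fold change of 0.19 (SE = 0.060). St3gal6, which acts on the same substrates, had 65.7, 57.8 and 65.5 CPM in Veh and 48.6, 60.3 and 55.9 CPM in GSK, with overlapping groups and a log2 fold change of -0.20 (SE = 0.080). St3gal1 instead sialylates core 1 and thereby competes with Gcnt1 for its substrate. It measured 45.0, 37.6 and 44.6 CPM in Veh and 41.9, 49.1 and 46.5 CPM in GSK, a log2 fold change of 0.11 (SE = 0.081) with overlapping groups. Transcripts of other genes overlap the annotated spans of St3gal1, St3gal4, St3gal6 and B4galt1, and reads may have been shared with them.

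Fut7, the alpha-1,3-fucosyltransferase that acts only on sialylated chains, measured 36.6, 35.2 and 37.2 CPM in Veh and 71.2, 68.6 and 71.2 CPM in GSK. All GSK values stood well above all Veh values, with means of 36.3 ± 1.00 and 70.3 ± 1.49 CPM (SD, n = 3). Its difference was 1.94-fold, a log2 fold change of 0.95 (SE = 0.055), and ranked number 150 from the top of the 11698 tested genes. Fut4, which also adds the fucose of Lewis x, had 30.5, 32.9 and 27.1 CPM in Veh and 35.9, 27.8 and 34.0 CPM in GSK. These groups overlapped, with a log2 fold change of 0.11 (SE = 0.10). Over the 6 fits that left out 1 culture, the log2 fold change ran from 0.93 to 0.97 for Fut7 and from 1.42 to 1.56 for Gcnt1, as a description.

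**Figure D1:**
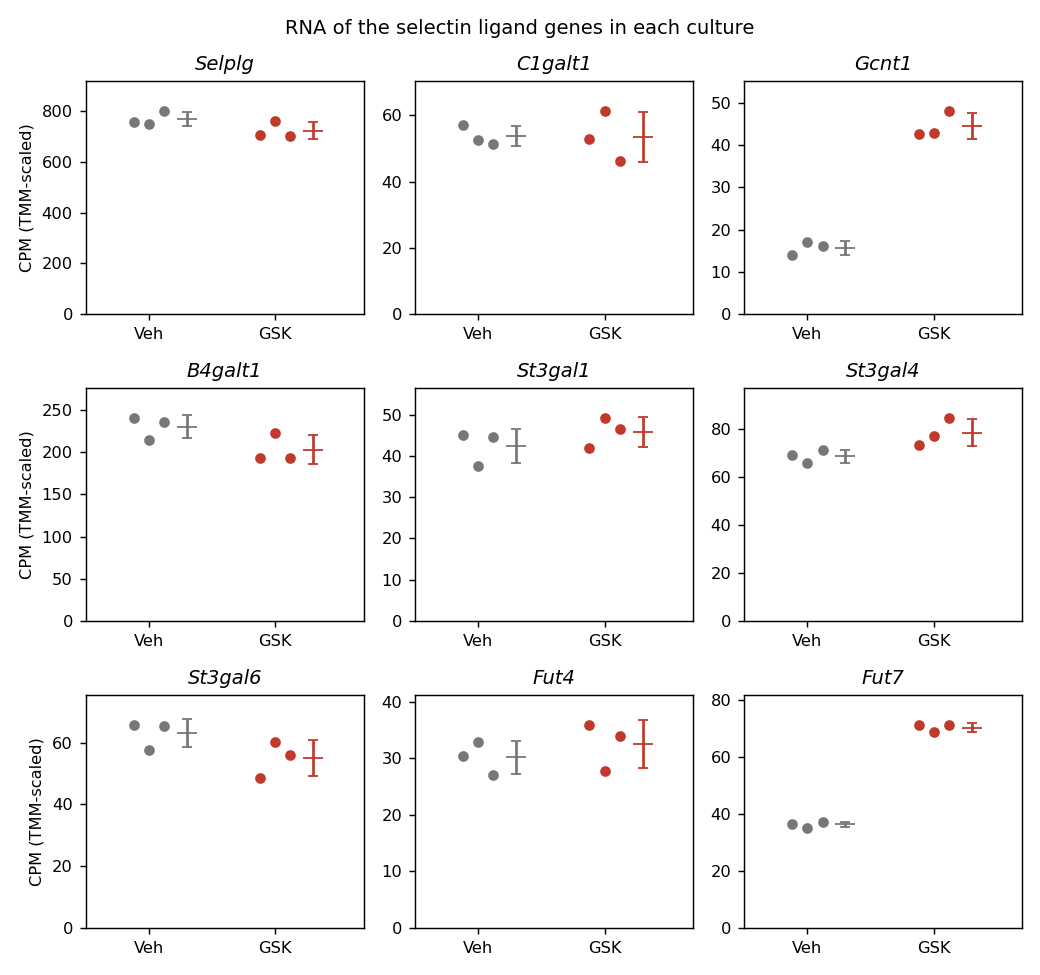
TMM-scaled CPM of the 9 members in each culture, by group, on linear axes from 0 that differ between panels; points are cultures, and the cross bar and whiskers are the mean ± SD (n = 3). The GSK points of Gcnt1 (42.7 to 48.0 CPM) and Fut7 (68.6 to 71.2 CPM) lie far above their Veh points, those of St3gal4 lie just above, and the other 6 genes overlap between groups.

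Replicate spread was unequal among the members. Fut7 was the tightest, with a coefficient of variation of 2.75% in Veh and 2.12% in GSK, against medians of 5.66% and 6.45% over all tested genes. Fut4 varied more, at 9.60% in Veh and 13.0% in GSK, and C1galt1 varied by 5.64% in Veh and 14.1% in GSK. Gcnt1 had 10.2% in Veh and 6.67% in GSK. Each was also ranked among the 200 tested genes nearest to it in mean count. In Veh the spread stood at percentile 23 for Fut7, 89 for Fut4, 69.5 for C1galt1 and 90 for Gcnt1. In GSK the percentiles were 13.5, 93, 98.5 and 55.

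To compare levels between genes, CPM was divided by the length of the gene's merged exons in kb. In Veh, Selplg led with 180 CPM per kb, followed by B4galt1 (54.3), St3gal4 (23.4), Fut7 (15.4), St3gal6 (10.2), C1galt1 (8.82), Fut4 (7.40), St3gal1 (6.18) and Gcnt1 (2.73). Gcnt1 thus had the lowest level per length in vehicle-treated cells, and in this order Fut4 and St3gal1 were neighbours whose mean ± SD overlapped. In GSK the order was Selplg (169 CPM per kb), B4galt1 (47.9), Fut7 (29.9), St3gal4 (26.8), St3gal6 (8.90), C1galt1 (8.77), Fut4 (7.99), Gcnt1 (7.73) and St3gal1 (6.69). From St3gal6 down to St3gal1, each of the 5 members overlapped the next within mean ± SD. Without division by length the scaffold was still first and Fut7 was placed number 7 in Veh and number 4 in GSK.

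**Figure D2:**
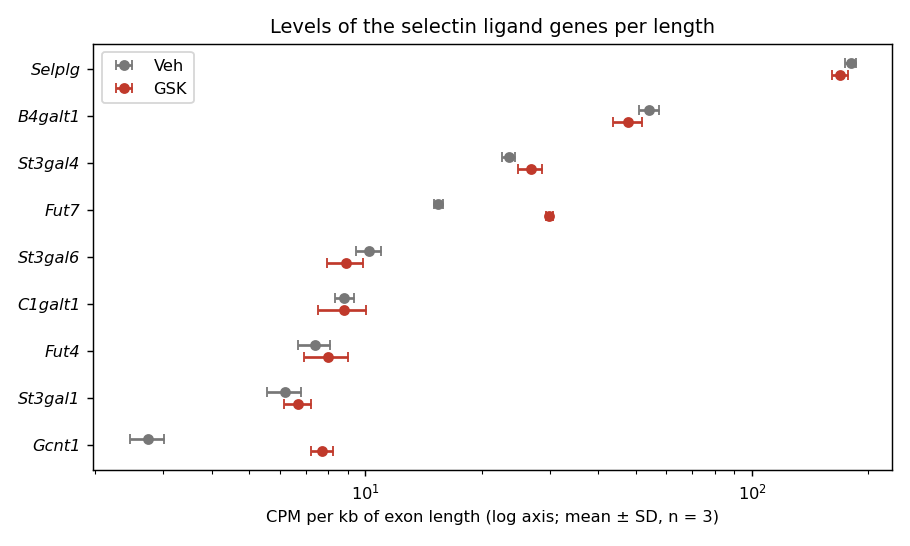
Level of each member per kb of exon length on a log axis (CPM per kb, mean ± SD, n = 3) in Veh (grey) and GSK (red). Selplg is highest in both groups (180 and 169 CPM per kb), Fut7 moves from 15.4 to 29.9 and Gcnt1 from 2.73 to 7.73.

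These levels gave the balance between enzymes of the same family. Fut7 made up 67.5%, 65.0% and 70.4% of the summed per-length level of Fut4 and Fut7 in the Veh cultures and 77.4%, 81.0% and 78.4% in the GSK cultures. The shares did not overlap, and the summed level of both went from 22.8 ± 0.325 to 37.9 ± 1.66 CPM per kb (SD, n = 3). Among the 3 sialyltransferases, St3gal4 held 58.9 ± 1.23% in Veh and 63.2 ± 2.02% in GSK, St3gal6 25.6 ± 0.511% and 21.0 ± 1.36%, and St3gal1 15.5 ± 0.729% and 15.8 ± 0.695%. Their summed level was 39.8 ± 2.20 CPM per kb in Veh and 42.3 ± 2.91 in GSK. St3gal1 acts on core 1 rather than on the extended branch, so these shares and sums span more than 1 step. Without division by length the share of St3gal4 was 39.5% in Veh and 43.7% in GSK, and that of Fut7 54.7% and 68.5%.

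Ratios between successive or competing enzymes moved with the Gcnt1 and Fut7 levels. Gcnt1 relative to C1galt1, the enzyme whose product it branches, was 0.259, 0.344 and 0.332 in Veh and 0.852, 0.742 and 1.10 in GSK. Relative to its competitor St3gal1, Gcnt1 was 0.370, 0.542 and 0.431 in Veh and 1.21, 1.04 and 1.23 in GSK. In each Veh culture Gcnt1 was thus below St3gal1 per length, and in each GSK culture above it. Without division by length Gcnt1 was below St3gal1 in GSK replicate 2 also, at 42.9 against 49.1 CPM. Fut7 relative to Fut4 was 2.08, 1.85 and 2.37 in Veh and 3.43, 4.27 and 3.62 in GSK. Against the scaffold Selplg, the mean ratio of Fut7 was 0.0858 in Veh and 0.177 in GSK, and that of Gcnt1 was 0.0152 and 0.0458. No test was made, since these ratios rest on the comparison by which the list was drawn up.

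**Figure D3:**
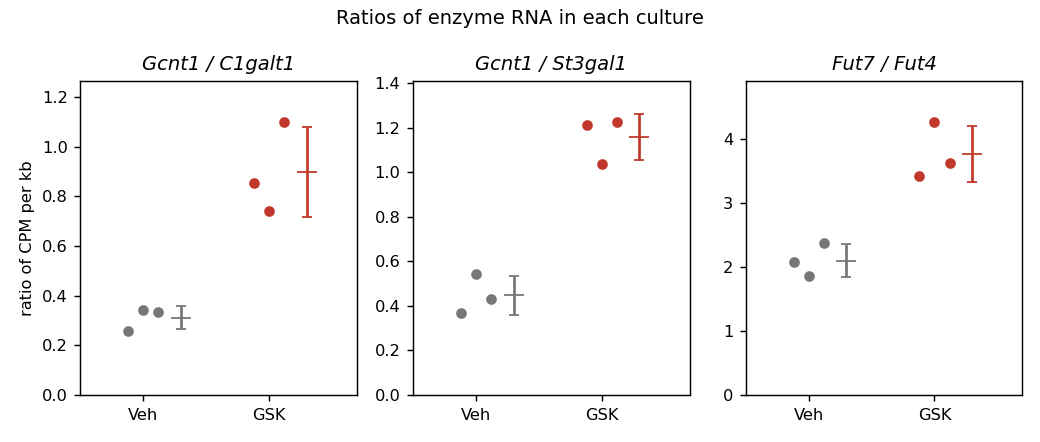
Ratios of per-length RNA levels in each culture for Gcnt1 to C1galt1, Gcnt1 to St3gal1 and Fut7 to Fut4, on linear axes from 0; points are cultures, and the cross bar and whiskers are the mean ± SD (n = 3). All GSK ratios lie above all Veh ratios, and Gcnt1 to St3gal1 is below 1 in each Veh culture and above 1 in each GSK culture.

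Gene ontology terms given in the deposited table showed what the members share besides their names. All 9 were annotated as integral membrane components, 8 with glycosyltransferase activity and 7 with the Golgi apparatus. Fut7, Fut4 and St3gal4 carried the term for positive regulation of leukocyte tethering or rolling, which 10 genes of the whole table carried. Gcnt1 and Selplg carried the plain term for leukocyte tethering or rolling, which was given to 20 genes.

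Other genes of the same pathway were taken from lists of scaffolds, selectins, enzymes, sugar suppliers and transcription factors, which the rule on members did not use. The lists were drawn up with earlier results of these data known, so their counts and p-values are not independent support. The lists named 119 genes, of which 108 had a row and 82 passed the filter on low counts. Of the 82, 5 rose and 4 fell by the call rule, which is 6.10% and 4.88% of them against 2.22% and 4.09% of all tested genes. At the adjusted p alone 17 were higher and 13 lower, 20.7% and 15.9% against 16.6% and 15.5% of all tested genes. The groups did not overlap for 44, 53.7% against 46.7%, and the median log2 fold change was 0.0019 against -0.0039. Without the 6 transcription factors, 4 of 76 rose and 2 fell by the call rule (5.26% and 2.63%), and at the adjusted p alone 21.1% were higher and 11.8% lower. The 5 that rose were Gcnt2, B4galt4, Tpst1, St6galnac4 and Eomes, and those that fell were Galnt9, St6galnac6, Tbx21 and Gata3.

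**Figure D4:**
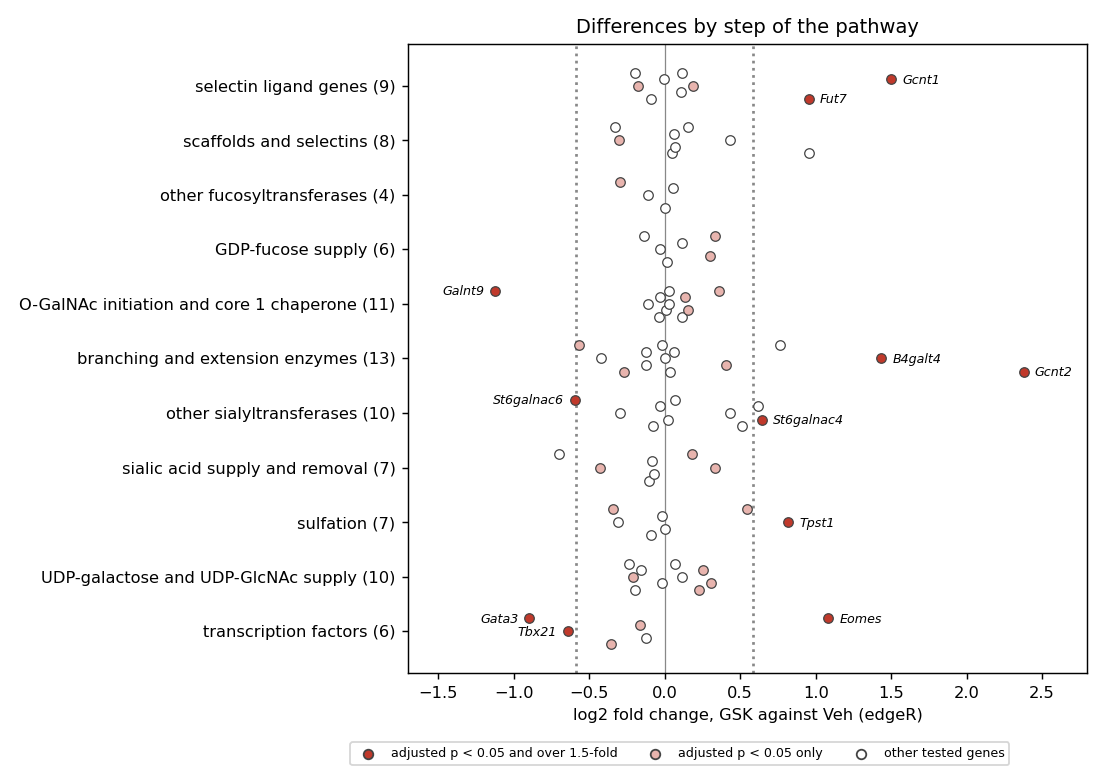
Log2 fold change of GSK against Veh (x axis) for every tested gene, 1 point each, by step of the pathway (y axis, number of tested genes in parentheses); dotted lines mark 1.5-fold, dark points passed the call rule and pale ones the adjusted p alone. In every step but the transcription factors most points lie between the dotted lines, and Gcnt2, B4galt4 and Gcnt1 lie farthest to the right.

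Scaffolds that carry the same sugars moved little. None of the 8 tested scaffolds and selectins passed the call rule. At the adjusted p alone 1 was lower, 12.5% against 15.5% of all tested genes, and none was higher. The largest log2 fold change of this list was that of the selectin gene Selp, named after its values were seen. It was 0.96 with overlapping groups, and the test was not passed (SE = 0.35, edgeR adjusted p = 0.058). Spn, the sialomucin CD43 that serves as an E-selectin ligand on activated T cells, had 626, 614 and 624 CPM in Veh and 641, 656 and 643 CPM in GSK. Every GSK value was above every Veh value by a small margin, and the test was not passed (log2 fold change 0.06, SE = 0.033, edgeR adjusted p = 0.20). Cd44, which can carry E-selectin ligands, gave a log2 fold change of 0.05 (SE = 0.044, edgeR adjusted p = 0.43). Glg1, the E-selectin ligand ESL-1, had 274, 256 and 272 CPM in Veh and 221, 230 and 200 CPM in GSK, lower in each GSK culture (log2 fold change -0.30, SE = 0.053, edgeR adjusted p = 0.0011) but within 1.5-fold.

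The initiation step held 11 tested genes, of which 1 fell by the call rule, 9.09% against 4.09% of all tested genes. At the adjusted p alone 3 were higher and 1 lower, 27.3% and 9.09% against 16.6% and 15.5%. The higher ones, named after their values were seen, stayed within 1.5-fold. They were Galnt2, Galnt3 and Galnt7 (log2 fold changes 0.14, 0.36 and 0.15). GalNAc transferases attach the first sugar, and Galnt6, which had the largest mean count of them, gave a log2 fold change of -0.11 (SE = 0.054, edgeR adjusted p = 0.13). The core 1 chaperone C1galt1c1, without which C1galt1 is inactive, had 13.5, 12.6 and 12.1 CPM in Veh and 12.4, 13.0 and 13.5 CPM in GSK (log2 fold change 0.03, edgeR adjusted p = 0.86). Galnt9, another GalNAc transferase, fell from 2.07, 1.98 and 2.94 CPM to 1.16, 1.37 and 0.678 CPM (log2 fold change -1.12, SE = 0.31, edgeR adjusted p = 0.016). These are 13 to 56 fragments per library, and the call was lost without Veh replicate 3 (adjusted p = 0.077) or GSK replicate 3 (adjusted p = 0.057).

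Among these lists, branching and extension held the largest rises. Of 13 tested genes 2 rose (15.4%) and none fell by the call rule, against 2.22% and 4.09% of all tested genes. At the adjusted p alone 3 were higher and 2 lower, 23.1% and 15.4% against 16.6% and 15.5%. The lower ones, named after their values were seen, stayed within 1.5-fold. They were B3gnt5 (log2 fold change -0.57, SE = 0.096, edgeR adjusted p = 7.8e-04) and B3gntl1 (log2 fold change -0.27, SE = 0.094, edgeR adjusted p = 0.044). Gcnt2 makes the I branch of polylactosamine rather than core 2. It had 3.81, 4.13 and 2.21 CPM in Veh and 16.6, 18.0 and 18.1 CPM in GSK, and rose 5.20-fold (log2 fold change 2.38, SE = 0.17, edgeR adjusted p = 2.6e-06). B4galt4, a further beta-1,4-galactosyltransferase, rose from 6.15, 5.20 and 3.99 CPM to 13.6, 14.0 and 13.9 CPM (log2 fold change 1.44, SE = 0.14, edgeR adjusted p = 2.3e-05). B4galt5, known as a lactosylceramide synthase, had 176, 193 and 182 CPM in Veh and 244, 233 and 255 CPM in GSK, higher at the adjusted p but within 1.5-fold (log2 fold change 0.41, SE = 0.049, edgeR adjusted p = 7.8e-05). Groups did not overlap for Gcnt2, B4galt4 or B4galt5.

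Sums over the families set these changes beside Gcnt1 and B4galt1. The per-length levels of Gcnt1, Gcnt2, Gcnt3 and Gcnt4 summed to 4.02 ± 0.349 CPM per kb in Veh and 11.1 ± 0.627 in GSK. Gcnt1 made up 67.9% of that sum in Veh and 69.5% in GSK, and Gcnt2 12% and 22.4%. For the 7 beta-1,4-galactosyltransferases B4galt1 to B4galt7 the sum was 114 ± 1.73 CPM per kb in Veh and 124 ± 3.00 in GSK. Within it the share of B4galt1 was 47.6 ± 2.15% in Veh and 38.6 ± 2.42% in GSK, and that of B4galt5 was 37.5 ± 2.34% and 45.7 ± 2.83%. B4galt1 was the largest of the 7 in each Veh culture, and B4galt5 in each GSK culture.

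Fucose supply and the other fucosyltransferases showed no call. Of 6 genes for GDP-fucose synthesis and transport, 2 were higher at the adjusted p alone, 33.3% against 16.6% of all tested genes. These were Gmds and Slc35c2, named after their values were seen. Slc35c1, the Golgi GDP-fucose transporter, had a log2 fold change of 0.12 (SE = 0.051, edgeR adjusted p = 0.097). Of 4 other fucosyltransferases 1 was lower at the adjusted p alone, 25% against 15.5% of all tested genes. It was Fut11, likewise named after its values were seen (log2 fold change -0.30, SE = 0.083, edgeR adjusted p = 0.016). Fut8, which adds the core fucose of N-glycans, had a log2 fold change of -0.11 (SE = 0.056, edgeR adjusted p = 0.14). Fut9, another enzyme that can make Lewis x, did not pass the filter on low counts.

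Among the 10 other sialyltransferases tested, 1 rose and 1 fell by the call rule, 10% each against 2.22% and 4.09% of all tested genes. St6galnac4 adds a second sialic acid to sialylated core 1. It rose from 35.3, 40.8 and 36.7 CPM to 58.7, 52.3 and 65.7 CPM (log2 fold change 0.65, SE = 0.085, edgeR adjusted p = 2.0e-04), and stood at 0.56, under the fold threshold, without GSK replicate 3. St6galnac6, which sialylates gangliosides, fell from 7.67, 8.21 and 10.7 CPM to 5.88, 4.76 and 6.99 CPM (log2 fold change -0.60, SE = 0.17, edgeR adjusted p = 0.019). That call was lost in 3 of the 6 fits without 1 culture, with adjusted p = 0.10 without Veh replicate 3, 0.065 without GSK replicate 1 and 0.051 without GSK replicate 2. The ganglioside enzyme St8sia1, which had the largest mean count of these genes over all cultures, gave a log2 fold change of -0.30 (SE = 0.12, edgeR adjusted p = 0.10). Of 7 genes for sialic acid supply and removal, none met the call rule. At the adjusted p alone 2 were higher and 1 lower, 28.6% and 14.3% against 16.6% and 15.5% of all tested genes. Nans, the sialic acid synthase, was higher within 1.5-fold (log2 fold change 0.33, SE = 0.058, edgeR adjusted p = 9.4e-04). Gne (log2 fold change 0.18), Neu3 (-0.43) and Cmah were named after their values were seen. Cmah had the largest difference, -0.70 with groups that did not overlap, and the test was not passed (SE = 0.20, edgeR adjusted p = 0.060).

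Tyrosine sulfation of PSGL-1, which strengthens P-selectin binding, is the work of Tpst1 and Tpst2. Tpst1 rose from 15.2, 16.3 and 18.4 CPM in Veh to 30.4, 29.1 and 28.6 CPM in GSK (log2 fold change 0.82, SE = 0.085, edgeR adjusted p = 2.8e-05). Tpst2 had 72.7, 77.8 and 79.4 CPM in Veh and 78.6, 73.4 and 77.7 CPM in GSK, with a log2 fold change of -0.00 (SE = 0.053, edgeR adjusted p = 0.99). Tpst2 remained the larger share of the pair per length, and Tpst1 went from 17.8 ± 0.904% to 27.7 ± 0.768% of their sum (SD, n = 3). In this list of 7 tested sulfation genes no other passed the call rule. At the adjusted p alone 2 were higher and 1 lower, 28.6% and 14.3% against 16.6% and 15.5% of all tested genes. Besides Tpst1 these were Chst2, higher, and Papss1, lower, both named after their values were seen. Their log2 fold changes were 0.54 (SE = 0.13, edgeR adjusted p = 0.0079) and -0.34 (SE = 0.071, edgeR adjusted p = 0.0030). Of the 10 genes for UDP-galactose and UDP-GlcNAc supply, none passed the call rule. At the adjusted p alone 3 were higher and 1 lower, 30% and 10% against 16.6% and 15.5% of all tested genes. These were named after their values were seen. Higher were Gnpnat1, Pgm3 and Uap1 (log2 fold changes 0.22, 0.31 and 0.25), and lower was Galk1 (-0.21). Gfpt1, the first enzyme of the hexosamine pathway, had a log2 fold change of 0.12 (SE = 0.053, edgeR adjusted p = 0.11).

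**Figure D5:**
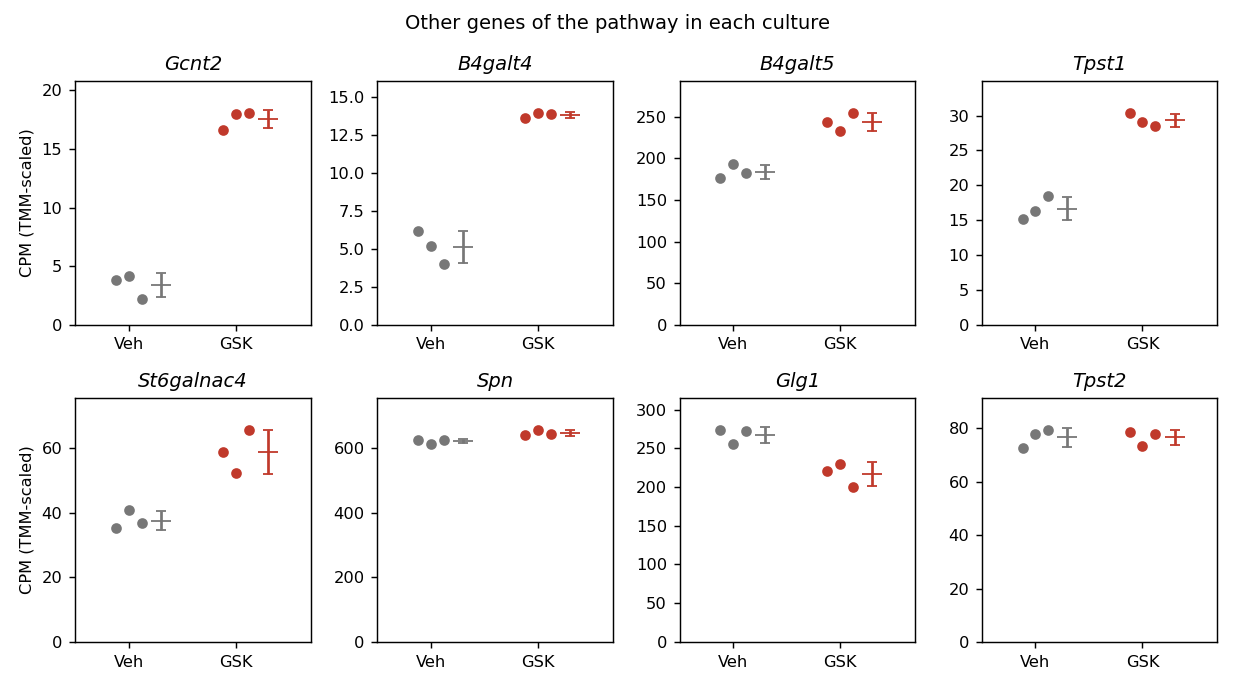
TMM-scaled CPM in each culture for 8 other genes of the pathway, on linear axes from 0 that differ between panels; points are cultures, and the cross bar and whiskers are the mean ± SD (n = 3). GSK points of Gcnt2, B4galt4, B4galt5, Tpst1 and St6galnac4 lie above the Veh points, those of Spn lie just above, those of Glg1 below, and those of Tpst2 overlap. The 8 include every enzyme of the pathway lists called higher and none of the genes called lower, so they do not represent the lists.

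Transcription factors that act on selectin ligand genes in T cells did not move in 1 direction. Of the 6 tested, 4 were lower and 1 higher at the adjusted p alone, against 15.5% and 16.6% of all tested genes. T-bet (Tbx21) is known to promote Gcnt1 and Fut7 expression, STAT4 to promote that of Gcnt1, and GATA-3 to oppose Fut7 in helper T cells. A part of these factors in the Gcnt1 and Fut7 values was not tested. Tbx21 fell from 45.0, 44.8 and 43.7 CPM in Veh to 31.3, 27.1 and 27.2 CPM in GSK (log2 fold change -0.64, SE = 0.071, edgeR adjusted p = 4.6e-05). Gata3 fell from 38.7, 35.4 and 41.7 CPM to 20.2, 23.8 and 18.1 CPM (log2 fold change -0.90, SE = 0.099, edgeR adjusted p = 6.0e-05). Eomes, a T-box factor related to T-bet, rose from 206, 213 and 194 CPM to 427, 419 and 453 CPM (log2 fold change 1.08, SE = 0.047, edgeR adjusted p = 1.5e-08). Stat4 was lower within 1.5-fold (log2 fold change -0.36, SE = 0.083, edgeR adjusted p = 0.011). So was Stat5b, named after its values were seen (log2 fold change -0.16, SE = 0.048, edgeR adjusted p = 0.018). Stat5a did not pass the test (log2 fold change -0.12, SE = 0.062, edgeR adjusted p = 0.14). Per length, Eomes stood at 49.2 CPM per kb in Veh and 104 in GSK, and Tbx21 at 17.9 and 11.5.

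The genes whose profile over the 6 cultures was most like that of a member were found from the root mean square difference of centred log2 CPM among 10176 genes. For Fut7 they were Klrc3 (0.0479), Rala (0.0732) and Wfs1 (0.0759), against a median of 0.483 over all genes compared. For Gcnt1 they were Klrc1 (0.111), Marcksl1 (0.121) and Evi5 (0.130), against a median of 0.759. Selplg, which differed little between groups, was closest to Ppcdc (0.0117), Ube2r2 (0.0173) and Rhog (0.0180), against a median of 0.132. Klrc1 and Klrc3 are closely related receptor genes between which reads could be split, so their values are uncertain. With a prior count of 0.5 in place of 2 the same 3 genes were found for each member. The profiles include the difference between the groups, so closeness to Fut7 or Gcnt1 in part means a difference of similar size. Shared control of these genes was not tested.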

How the data were processed

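Poly(A)+ RNA of 6 cultures was sequenced as 150-bp read pairs with a stranded kit. The authors trimmed reads with Trimmomatic, aligned them to GRCm38 with HISAT2 v2.1.0 and counted per gene with HTSeq v0.11.2 (annotation release and strand setting not given in the sources used here). The deposited values are raw counts per gene, and each of the 6 sample columns was used. Here, counts were filtered with filterByExpr, scaled by TMM and fitted with edgeR v4.0.16 (R v4.3.3, robust quasi-likelihood test, no covariates), with Benjamini-Hochberg adjustment over 11698 genes. The standard error is the log2 fold change divided by the root of F. The scripts were tested on simulated data. DESeq2 v1.42.0 was an alternative, beside other scaling, filters, a replicate block, a test against 1.5-fold and the omission of each culture. Exon lengths came from GENCODE vM21, gene positions and promoters from RefSeq GRCm38.p6. Replicates were not duplicates (chi-square per degree of freedom 3.95 to 9.02). Members and gene lists were chosen with earlier results of these data known. Named were all members, all called pathway genes, the tested gene of each list with the largest mean count, 11 set genes (1 of them not reported here) and the 3 genes most alike to Fut7, Gcnt1 and Selplg. P-values measure the spread between these cultures only.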

Additional observations from a re-analysis of the deposited data

How the results depend on the processing

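A test against a 1.5-fold change left 69 genes higher and 65 lower over the whole table, and 3 pathway genes higher and 0 lower. The 3 were Gcnt2, B4galt4 and Eomes. With the adjusted p alone, 1941 genes were higher and 1819 lower, 1 member (B4galt1) was lower, and 17 pathway genes were higher and 13 lower. Leaving out 1 culture at a time gave 224 to 291 genes higher and 403 to 547 lower, 2 to 2 members higher and 0 to 0 lower, and 5 to 7 pathway genes higher and 3 to 5 lower. With the replicate number as a block, 253 genes were higher and 447 lower, and 2 members higher and 0 lower. The pathway lists then had 5 genes higher and 5 lower, and B4galt1 no longer passed the adjusted p. All counts and passes of members here are a description, since the rule used the comparison of GSK with Veh. Deviations of same-numbered cultures correlated at -0.052, -0.081 and 0.16, and the labels give no pairs, so the numbers were not taken as pairs. A correlation over all genes cannot exclude that same-numbered cultures shared a mouse. DESeq2 called 234 genes higher and 416 lower. St8sia1, lower within 1.5-fold, passed the adjusted p in DESeq2 (0.014) and in edgeR with the replicate number as a block (0.0033). With 3 cultures a group, small differences such as that of Selplg were not resolved, and RNA levels do not measure enzyme activity or selectin binding.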
